A study of Bos taurus with 3 samples.

Results

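The newborn rumen was read for 10 genes of antigen presentation on class II molecules of the major histocompatibility complex (MHC): BOLA-DRA, BLA-DQB, BOLA-DMB, CD74, CIITA, CTSS, CST3 and 3 genes that the files list by identifier alone, ENSBTAG00000013919, ENSBTAG00000009656 and ENSBTAG00000037605. They were chosen by name, and all 10 were found among the 27270 genes of the count matrices. The rumen of 3 newborn calves, 1 day after birth, was stripped of its outer muscle layers, broken up into single cells and sequenced in droplets. The authors' paper names the Holstein breed for its adult cattle only. Each calf gave 1 library, with no treatment and no other group, so that a library and an animal cannot be told apart. Cells of the adult rumen were not analysed here. The question was in which cells of the newborn rumen these transcripts lay, and whether the small amounts found in epithelial cells followed the number of immune cells in the calf.

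MHC class II molecules are pairs of an alpha and a beta chain that carry peptides from the endosome to the surface of antigen-presenting cells, where CD4+ T cells read them. The invariant chain CD74 holds the groove of a new molecule shut, the lysosomal protease cathepsin S (CTSS) trims that chain, cystatin C (CST3) inhibits proteases of this kind, and the DM heterodimer, of which BOLA-DMB is the beta chain, exchanges the last fragment for a peptide. BOLA-DRA is the DR alpha chain and BLA-DQB, which the RefSeq gene table gives as a synonym of BOLA-DQB1, a DQ beta chain. CIITA is the transactivator that switches the class II genes on. The bovine class II genes include close copies and vary between animals, so the assignment of reads among BLA-DQB and the genes known by identifier alone is uncertain.

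The 3 libraries held 7529 to 12043 barcodes and 82263092 to 106145091 unique molecular identifiers (UMIs, each marking 1 captured transcript). After the filters, 4695, 9746 and 9601 cells remained in calves 1, 2 and 3, with medians of 10173, 6472 and 7415 UMIs per cell. The libraries stood apart in their immune cells, which were 0.213%, 0.688% and 7.21% of the cells and gave 0.0984%, 0.491% and 4.56% of the UMIs. Kept cells of calves 1 and 2 shared 11 barcodes, those of calves 1 and 3 shared 17 and those of calves 2 and 3 shared 25.

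Cell classes were named from marker genes that held none of the 10 genes, and the class II genes were left out of the genes used for clustering. The dendritic class held 2, 24 and 269 cells in calves 1, 2 and 3, the macrophage-like class 5, 17 and 99, the T class 3, 25 and 262, the endothelial class 75, 546 and 677, the fibroblast class 22, 334 and 405 and the epithelial class 4588, 8790 and 7814. Calf 1 therefore gives immune values from very few cells. The 6 markers of immune cells of any kind summed to 47.5 to 58.0 UMIs per 10000 in immune cells, 0.477 to 0.628 in endothelial cells and 0.00455 to 0.0432 in epithelial cells. T-cell markers summed to 26.6 to 30.1 UMIs per 10000 in the T class and to at most 0.481 in the dendritic class. The dendritic class was less clean in calf 2, where its 24 cells held 29.6 UMIs per 10000 of the 8 macrophage markers against 9.46 of the 8 dendritic markers, while in calves 1 and 3 the dendritic markers led with 39.7 and 29.8 against 9.70 and 4.52. Complement C1QA, a macrophage gene, was at 9.97 UMIs per 10000 in that class in calf 2, at 0.00535 in calf 3 and at 0 in calf 1. The defining markers of the cross-presenting dendritic cell, XCR1 and CLEC9A, were at 0 in the dendritic class of calves 1 and 2, where 3 UMIs would have been a level of 2.64 and 0.192 UMIs per 10000, and XCR1 had 1 UMI in that class in calf 3. The part of this mixture in the values of calf 2 was not tested. The calls of the 10 genes were refitted without that calf, while the counts over other lists of genes were not.

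Of the 6 classes, the dendritic class held the highest levels of BOLA-DRA, BLA-DQB, CD74 and ENSBTAG00000013919 in every calf. BOLA-DRA reached 231, 202 and 172 UMIs per 10000 in the dendritic cells of calves 1, 2 and 3 (mean 202 ± 29.4, SD, n = 3 calves), and CD74 214, 194 and 151 (186 ± 32.3). ENSBTAG00000013919 was found at 270, 256 and 194 UMIs per 10000 there (240.1 ± 40.2), so that for the 3 genes calf 3, with the most dendritic cells, gave the lowest of the levels. BOLA-DMB, which acts in the endosome, was at 13.2, 17 and 10.1 UMIs per 10000 (13.4 ± 3.44). The calf 1 values in these means rest on 2 cells. Both had a UMI of BOLA-DRA and of ENSBTAG00000013919, but only 1 had a UMI of CD74 and only 1 a UMI of BOLA-DMB. A BOLA-DRA UMI was found in 261 of the 261 dendritic cells of calf 3 that were deep enough to be thinned at random to 2000 UMIs (exact Clopper-Pearson 95% confidence interval 98.6% to 100%) and in 24 of 24 in calf 2. Such intervals cover counting error only.

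Macrophage-like cells carried the same transcripts, the chains and CD74 at lower levels than the dendritic cells of the same calf and cathepsin S at higher ones. BOLA-DRA was at 65.8, 138 and 136 UMIs per 10000 (113 ± 41.0) and CD74 at 56.2, 130 and 136 (107 ± 44.3). The mean BOLA-DRA level of this class ran from 59.6 to 185 under other settings, and at an immune resolution of 0.4 no cell was named macrophage-like. BLA-DQB was at 57.4, 85.3 and 60.9 there against 180, 138 and 82.4 in dendritic cells, and BOLA-DMB at 9.22, 13.7 and 10.7, above the dendritic level in calf 3. After thinning, 5 of 5, 16 of 17 and 86 of 91 macrophage-like cells had a BOLA-DRA UMI. CTSS turned the other way, with 16.4, 23.7 and 32.3 UMIs per 10000 in macrophage-like cells against 10.6, 16.2 and 19.4 in dendritic cells. CST3 had the opposite order, with 118, 122 and 181 UMIs per 10000 in dendritic cells (140.4 ± 35.6) against 21.1, 49.6 and 70.9 in macrophage-like cells (47.2 ± 24.96), and its 2 groups of 3 calves did not overlap.

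**Figure D1:**
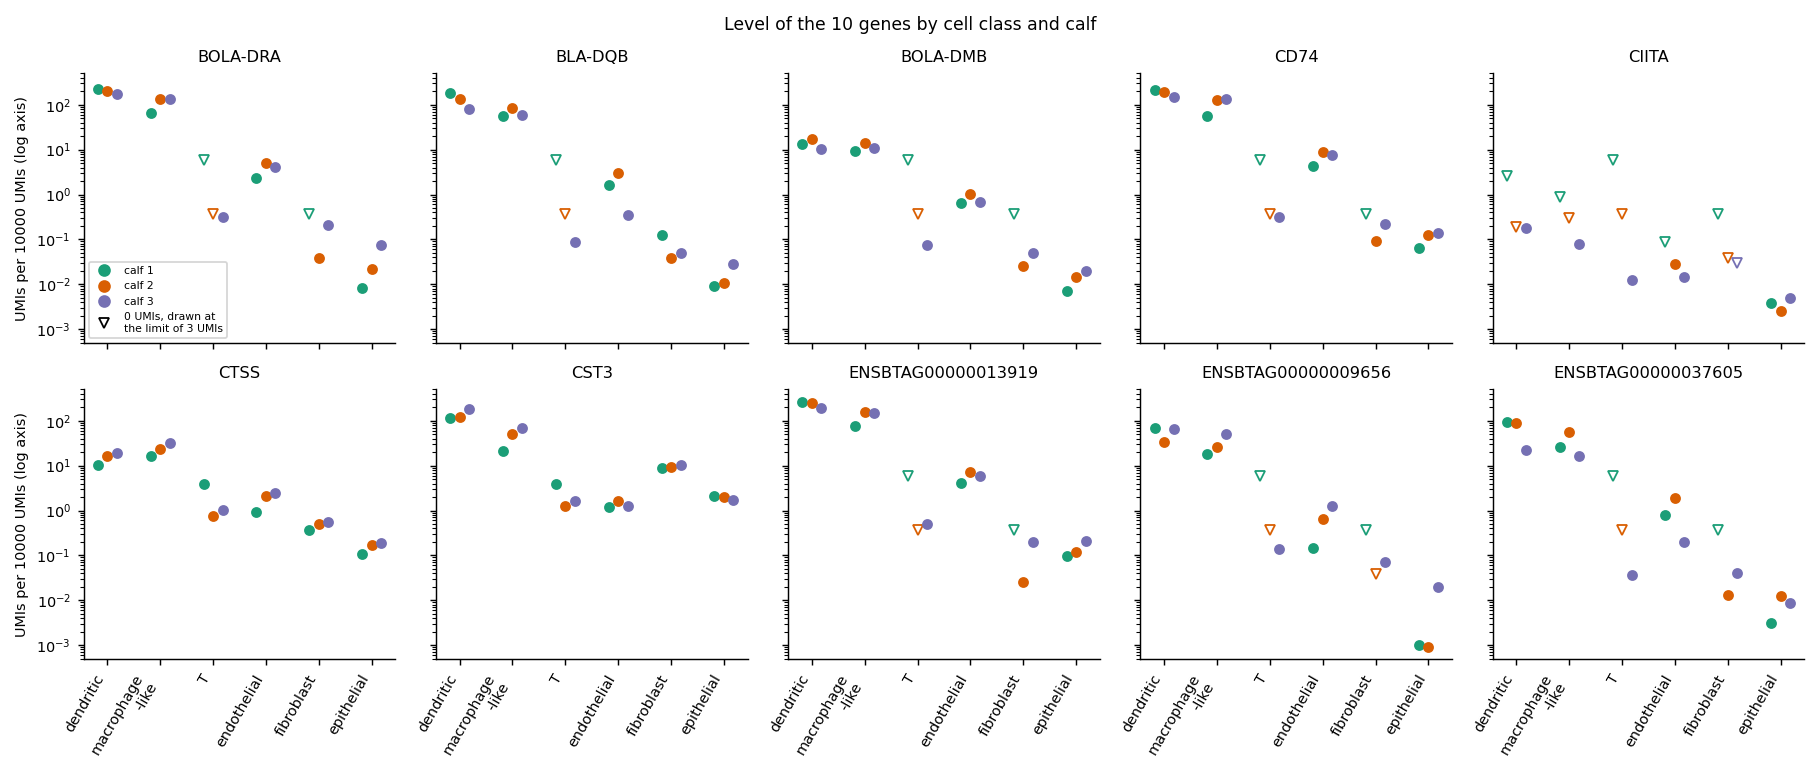
Level of each of the 10 genes (UMIs per 10000 UMIs, log axis) in dendritic, macrophage-like, T, endothelial, fibroblast and epithelial cells, with 1 point per calf and open triangles at the level of 3 UMIs where no UMI was found. BOLA-DRA falls from 172 to 231 in dendritic cells through 2.36 to 5.06 in endothelial cells to at most 0.0742 in epithelial cells, while CST3 stays between 1.71 and 2.13 in epithelial cells.

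These differences were tested with edgeR's quasi-likelihood test on UMI counts summed per class and calf, with the calf as a block and Benjamini-Hochberg adjustment over 9980 genes. Calf 1 entered only through its endothelial, fibroblast and epithelial sums, because its immune sums held fewer than 10 cells. CIITA was too low to be tested, which left 9 of the 10 genes. Between dendritic and macrophage-like cells, CST3 alone of the 9 passed the threshold of 0.05, higher in dendritic cells, in a comparison where 0.311% of all genes were called higher and 1.59% lower. Its log2 difference was 1.39 ± 0.31 (SE; adjusted p = 0.0162). The call was lost without the calf block (adjusted p = 0.0820), without calf 2 (0.0835), without calf 3 (0.256) and with classes set by gates on marker UMIs (0.0872), and the log2 difference lay between 1.39 and 1.57 under these settings. CTSS had a log2 difference of -0.59 ± 0.27 (adjusted p = 0.438) and BOLA-DRA of 0.52 ± 0.43 (adjusted p = 0.780). The median log2 difference of the 9 genes was 0.52, against 0.05 over all genes tested. In a fit on these 2 classes alone 6 of the 10 genes passed, and under the gates BOLA-DRA, BOLA-DMB, CD74, ENSBTAG00000013919 and ENSBTAG00000009656 changed sign without passing the threshold.

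Between dendritic and T cells all 9 tested genes were higher in dendritic cells, where 7.9% of all genes were called higher and 6.32% lower. The log2 difference was 9.49 ± 0.68 for BOLA-DRA (adjusted p = 4.4e-09), 9.12 ± 0.51 for CD74 (adjusted p = 4e-10), 6.47 ± 0.40 for CST3 and 4.06 ± 0.33 for CTSS. The median of the 9 genes was 9.05, against 0.01 over all genes (0.17 without composition scaling). The 9 calls remained without the block and with DESeq2. Refits without calf 2 or calf 3 left the dendritic and T sums of the other calf alone, and so no spread between calves. T cells of calf 2 held no UMI of BOLA-DRA, CD74, BLA-DQB, BOLA-DMB or the 3 genes without a symbol, where 3 UMIs would have been a level of 0.375 UMIs per 10000. In calf 3 BOLA-DRA stood at 0.308 UMIs per 10000 in T cells, from 25 UMIs in 11 of 262 cells, and 2 cells with 3 or more UMIs held 64% of them. CD74 was at 0.320 UMIs per 10000 there. After thinning, 2.94% of the T cells of calf 3 had a BOLA-DRA UMI (interval 1.09% to 6.29%).

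The dendritic class was made of 2 clusters that could be compared in calf 3. The larger, of 224 cells in the 3 calves and led by FCER1A, held BOLA-DRA at 180 UMIs per 10000, CST3 at 166, CTSS at 21.7 and BLA-DQB at 89.6 in calf 3. The smaller, of 71 cells and led by DNASE1L3, CXCL9, CLEC9A and BATF3, held BOLA-DRA at 149, CST3 at 228, CTSS at 12.2 and BLA-DQB at 60.6. CST3 was thus higher and the other 3 lower in the smaller cluster, with 1 calf and no test. A cluster of 36 cells, 35 of them in calf 3, was left without a name and was counted among all immune cells, with BOLA-DRA at 74.5, CD74 at 82.1 and CST3 at 78.5 UMIs per 10000 in calf 3. A further immune cluster was found in calf 3 only. The plasmacytoid dendritic-like cells (27 cells, led by FCRLA, SMIM5, JCHAIN and CTSK, with SPIB at 4.51 and TCF4 at 6.36 UMIs per 10000) held CTSS at 96.7 UMIs per 10000, above the level in every other class, together with CD74 at 35.7, BOLA-DRA at 15.3 and CST3 at 5.39.

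CIITA was low in every class. In calf 3 it was found at 0.182 UMIs per 10000 in dendritic cells, from 34 UMIs, at 0.0805 in macrophage-like cells, from 4 UMIs, and at 0.0123 in T cells, from 1 UMI. In calf 2 its level was 0 in all 3 of these classes, where 3 UMIs would have been a level of 0.192 in dendritic cells, so that a level like that of calf 3 was not detectable. Endothelial cells had 0, 7 and 5 CIITA UMIs in calves 1, 2 and 3, and the fibroblasts none. Epithelial cells had 19, 17 and 34, which is 0.00376, 0.00254 and 0.00496 UMIs per 10000.

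Endothelial cells, which line the vessels and in cattle can carry class II, formed a second tier between the antigen-presenting cells and the rest of the stroma. CD74 was at 4.43, 8.94 and 7.49 UMIs per 10000 in the endothelial cells of calves 1, 2 and 3 (6.95 ± 2.30) and at 0, 0.0903 and 0.224 in fibroblasts. BOLA-DRA was at 2.36, 5.06 and 4.14 (3.85 ± 1.37) in endothelial cells against 0, 0.0387 and 0.213 in fibroblasts. ENSBTAG00000013919 followed with 4.13, 7.07 and 5.74, and BOLA-DMB with 0.649, 1.02 and 0.692. For each of these 4 genes the 3 endothelial values lay above every fibroblast and every epithelial value.

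Against epithelial cells, 8 of the 9 tested genes were higher in endothelial cells (22.4% of all genes were called higher) and CST3 was lower (24.1% were called lower). CD74 had a log2 difference of 5.54 ± 0.33 (adjusted p = 6.6e-12), BOLA-DRA of 6.73 ± 0.46, BOLA-DMB of 5.38 ± 0.31 and CTSS of 3.04 ± 0.24. Against fibroblasts the count was again 8 higher, with 12.8% of all genes called higher, and CST3 lower, with 14% called lower. There the log2 difference was 5.82 ± 0.41 for CD74 (adjusted p = 3.6e-10), 5.54 ± 0.55 for BOLA-DRA and 2.01 ± 0.28 for CTSS. The median over the 9 genes was 5.54 and 4.97 in the 2 comparisons, against -0.07 and 0.03 over all genes. Both comparisons share the endothelial sums. All 9 calls against fibroblasts remained without each calf in turn. Against epithelial cells that of CST3 was lost without calf 1 (adjusted p = 0.0692) and with doublets kept (0.0807). Without composition scaling of the library sizes the share of all calls that were higher in endothelial than in epithelial cells moved from 48.2% to 70.9%, and the median of all genes from -0.07 to 0.39, while the 9 genes kept their directions and calls.

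The share of endothelial cells with a transcript rose with depth but stood far above that of the other stroma at matched depth. After thinning, a BOLA-DRA UMI was found in 32.8%, 54.3% and 51.2% of endothelial cells in calves 1, 2 and 3, and a CD74 UMI in 46.3%, 68.8% and 71.0%. In fibroblasts of calf 3 the shares were 2.56% (interval 0.947% to 5.50%) and 2.99% (1.21% to 6.07%). In calf 2, 0 of 160 fibroblasts had a CD74 UMI, which allows a share of up to 1.88%, counted as 3 cells of 160. Median depths before thinning were 3990 UMIs in endothelial cells, 2092 in fibroblasts and 2566 in T cells, and without thinning the endothelial shares for BOLA-DRA were 42.7%, 69.0% and 70.6%. In calf 2, 175 of 546 endothelial cells held 3 or more BOLA-DRA UMIs.

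**Figure D2:**
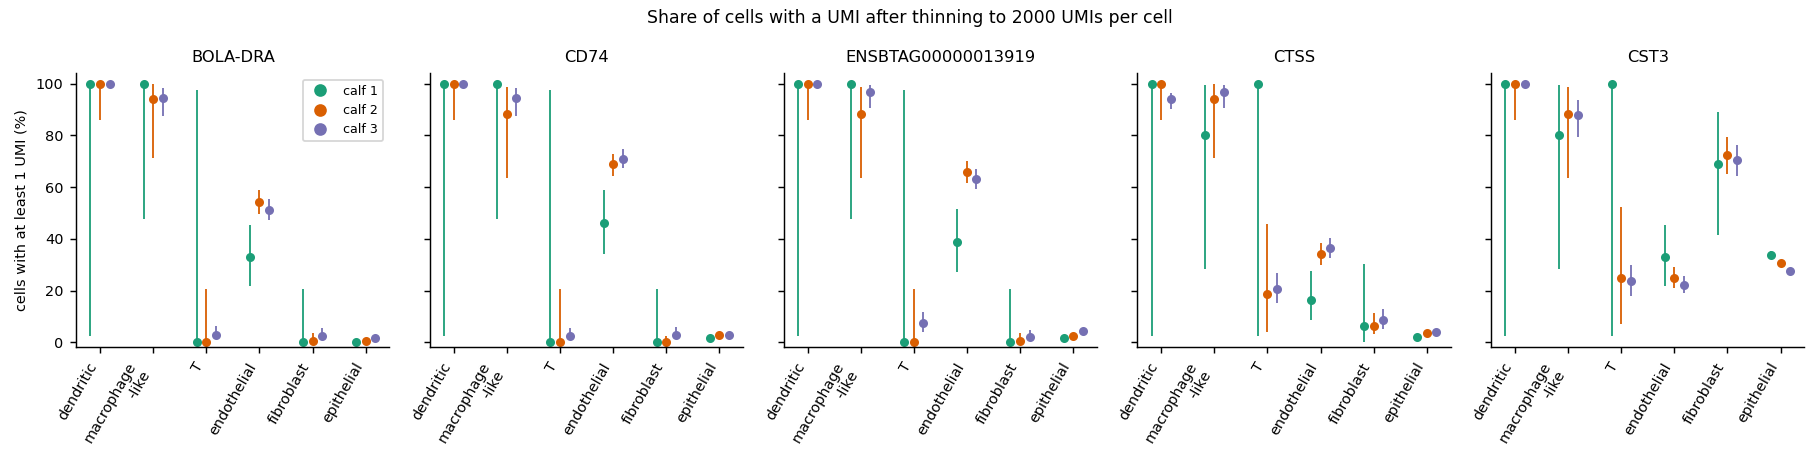
Share of cells with at least 1 UMI (%) after thinning to 2000 UMIs per cell, by cell class, with 1 point per calf and exact 95% Clopper-Pearson intervals. For BOLA-DRA the endothelial points at 32.8% to 54.3% stand between the antigen-presenting cells, at 94.1% to 100%, and the T, fibroblast and epithelial points, which reach 2.94% at most.

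Markers of immune cells were low in the endothelial class. Endothelial CD74 was 5.14%, 7.03% and 7.06% of the level in all immune cells of the same calf, and BOLA-DRA 2.45%, 3.74% and 3.55%. Of the 6 markers of immune cells of any kind, LAPTM5 stood at 3.59%, 4.53% and 3.34%, in the range of BOLA-DRA, and the other 5 at 0.623% at most. The pan-leukocyte gene PTPRC and the myeloid adaptor gene TYROBP were at 0 in the endothelial cells of calves 1 and 2. Endothelial cells without a UMI of any of these markers held BOLA-DRA at 2.33, 5.03 and 4.26 UMIs per 10000, close to the values of the whole class. The transcripts were spread over the endothelial clusters. CD74 was at 4.37, 8.72 and 7.19 UMIs per 10000 in the cluster of 771 cells led by CCL21, PRSS23 and LYVE1 and at 3.70, 8.18 and 7.37 in the cluster of 347 cells, and it was at 10.7 and 11.2 in calves 2 and 3 in the cluster of 160 cells led by NTS, with too few cells of calf 1.

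CST3 set itself apart from the other genes outside the immune cells. Fibroblasts held it at 8.98, 9.34 and 10.4 UMIs per 10000 (9.59 ± 0.762), epithelial cells at 2.13, 1.97 and 1.71 (1.93 ± 0.214), T cells at 3.86, 1.25 and 1.66 and endothelial cells at 1.18, 1.62 and 1.28 (1.36 ± 0.230). Endothelial cells were lower than fibroblasts by a log2 difference of -2.75 ± 0.27 (adjusted p = 6.2e-08) and lower than epithelial cells by -0.97 ± 0.26 (adjusted p = 0.00373). After thinning, 33.9%, 30.8% and 27.7% of epithelial cells and 68.8%, 72.5% and 70.5% of fibroblasts had a CST3 UMI. The epithelial level had the order opposite to the immune share of the calf. In T cells the CST3 level was not told apart from that of epithelial cells (log2 difference -0.73 ± 0.33, adjusted p = 0.101), and the 8 epithelial markers summed to 17.3, 10.5 and 7.19 UMIs per 10000 in T cells against 191, 215 and 174 in epithelial cells.

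CTSS was spread more widely than the class II chains. Its endothelial level was 0.915, 2.16 and 2.42 UMIs per 10000 and its fibroblast level 0.374, 0.503 and 0.559, above the epithelial level of 0.110, 0.174 and 0.188 in every calf. T cells held 0.749 and 1.05 in calves 2 and 3. Of the 9 genes, 4 were higher in T than in epithelial cells, where 13.5% of all genes were called higher. They were CTSS (log2 difference 1.99 ± 0.31, adjusted p = 3.1e-05), BOLA-DRA (2.32 ± 0.61, adjusted p = 0.00536), ENSBTAG00000009656 (3.22 ± 0.83, adjusted p = 0.00471) and BOLA-DMB (1.90 ± 0.72, adjusted p = 0.0471). Without calf 3 no edgeR call was left (adjusted p of 0.114 to 0.970) and 7 of the 9 changed sign, the T cells of calf 2 having no UMI of the class II genes. Without the calf block 2 calls were left, and with doublets kept or with gates 8 passed. Without composition scaling the share of all calls that were higher in T cells moved from 41.1% to 52.3% and the median of all genes from -0.31 to -0.08.

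Epithelial cells held all 10 genes, 9 of them at low levels. BOLA-DRA was at 0.00812, 0.0217 and 0.0742 UMIs per 10000 in calves 1, 2 and 3, from 41, 145 and 509 UMIs, and the exact Poisson intervals of the calves did not overlap (0.00583 to 0.0110 for calf 1, 0.0183 to 0.0255 for calf 2, 0.0679 to 0.0810 for calf 3). CD74 was at 0.0632, 0.128 and 0.142, from 319, 855 and 971 UMIs, and ENSBTAG00000013919 at 0.0988, 0.119 and 0.206. Against these levels, all 9 tested genes were higher in dendritic cells (20.2% of all genes were called higher), with log2 differences of 11.81 ± 0.56 for BOLA-DRA, 9.85 ± 0.41 for CD74, 6.05 ± 0.29 for CTSS and 5.74 ± 0.32 for CST3 and a median of 10.00 against -0.25 over all genes. Without composition scaling the share of all calls that were higher in dendritic cells moved from 43.8% to 61.1% and the median of all genes to 0.17, and the 9 calls remained.

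The epithelial levels of 6 of the 10 genes had the same order over the calves as the immune share, but the step differed between genes. The share of all genes with that order is not given here, so the 6 cannot be set against a background. BOLA-DRA was 9.14-fold higher in the epithelial cells of calf 3 than in those of calf 1 (exact 95% interval of the ratio 6.64 to 12.9), CD74 2.24-fold (1.97 to 2.55) and ENSBTAG00000013919 2.09-fold (1.88 to 2.32). The other ratios were 19.4 for ENSBTAG00000009656, 3.11 for BLA-DQB, 2.81 for ENSBTAG00000037605, 2.70 for BOLA-DMB, 1.71 for CTSS, 1.32 for CIITA and 0.801 for CST3. Over the 5 markers of immune cells of any kind with a UMI in calf 1, the ratio ran from 4.75, for CORO1A, to 17.7, for CD53, but these rest on 11 UMIs in calf 1 for CORO1A, 3 or 4 for TYROBP, LAPTM5 and LCP1 and 1 for CD53, and that of ENSBTAG00000009656 on 5. The ratio of BOLA-DRA lay inside this range, and those of 8 genes lay below it. Markers of the dendritic and T-cell lists ran wider, from 0.207 for CD3D to 31.7 for FCER1A, the latter from 1 UMI in calf 1. That span holds the ratios of all 10 genes, so the ratios do not set them apart from markers of immune cells in general. With 3 calves no test across calves was made.

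Set against the level in all immune cells of the same calf, the genes fell into 2 sets, as judged by 6 markers alone. The immune level of calf 1 rests on 50148 UMIs. The 6 markers of immune cells of any kind gave an epithelial level of at most 0.0260% of the immune level in calf 1, between 0.00704% and 0.0175% in calf 2 and between 0.0672% and 0.110% in calf 3. BOLA-DRA lay inside this range in calves 1 and 2, at 0.00843% and 0.0160%, and below it in calf 3, at 0.0638%. BLA-DQB did the same, at 0.0115%, 0.0119% and 0.0520%, and ENSBTAG00000009656, at 0.00360%, 0.0038% and 0.0429%, was inside it in calf 1 only. ENSBTAG00000037605 passed the highest marker in calf 2 only, at 0.0214%. CD74 lay above all 6 markers in each calf, at 0.0733%, 0.101% and 0.134%, as did ENSBTAG00000013919 at 0.0875%, 0.0710% and 0.158%, BOLA-DMB at 0.0777%, 0.124% and 0.259%, CTSS at 0.797%, 1.198% and 0.956% and CST3 at 5.16%, 2.79% and 1.52%. Not every marker of an immune class followed the immune share: the T-cell kinase LCK was at 0.146, 0.181 and 0.0888 UMIs per 10000 in epithelial cells, and DNASE1L3, of the dendritic list, at 0.00752, 0.0121 and 0.00233. As percentages of the immune level, LCK reached 73.1%, 36.9% and 19.9%, and DNASE1L3 5.24% and 0.224% in calves 2 and 3, above CD74. The median over T-cell markers was 0.0621%, 0.141% and 0.169%, above CD74 in calves 2 and 3. That over dendritic markers was 0.00417%, 0.00739% and 0.0808%, below CD74 in each calf. The 2 sets therefore hold only beside the 6 markers of immune cells of any kind.

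**Figure D3:**
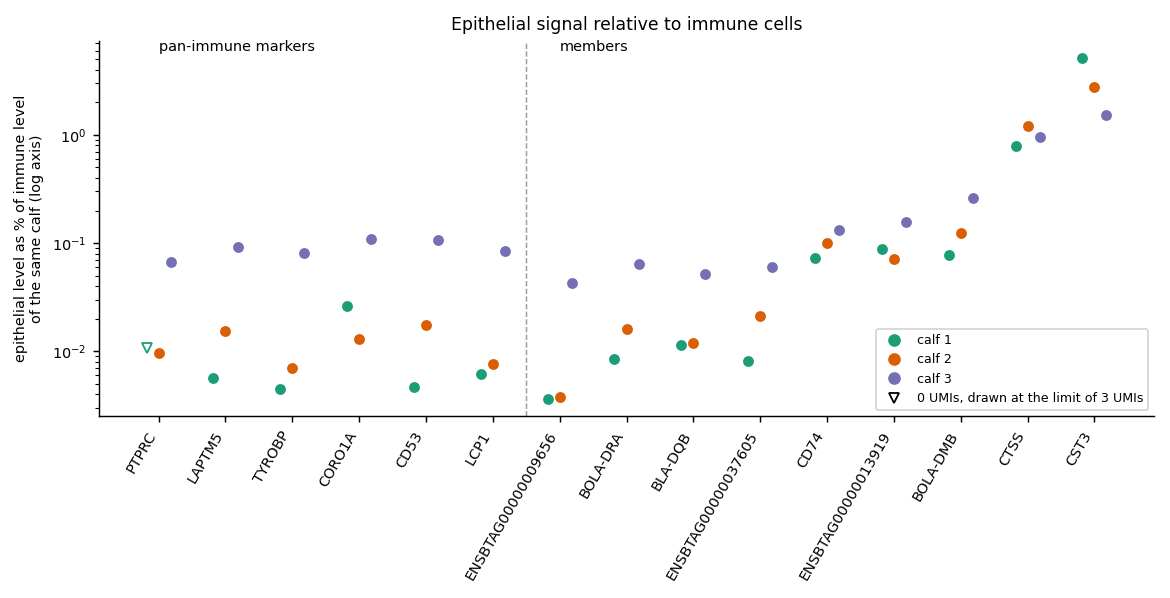
Epithelial level as a percentage of the level in all immune cells of the same calf (log axis) for the 6 markers of immune cells of any kind, left of the dashed line, and for the genes of antigen presentation, right of it, CIITA left out, with 1 point per calf and an open triangle at the limit of 3 UMIs for PTPRC in calf 1. BOLA-DRA lies among the markers in calves 1 and 2, at 0.00843% and 0.0160%, and below them in calf 3, at 0.0638%, while CD74, at 0.0733% to 0.134%, and CST3, at 1.52% to 5.16%, lie above those of the same calf.

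Ratios of UMIs within a class gave the same division. They rearrange the counts behind the percentages above and are no second line of evidence. The number of CD74 UMIs per BOLA-DRA UMI was 0.894, 0.941 and 0.911 over all immune cells of calves 1, 2 and 3 and 1.88, 1.77 and 1.81 in endothelial cells, and hence nearly constant between calves in each. In epithelial cells it was 7.78 (95% interval 5.61 to 11.1), 5.90 (4.94 to 7.08) and 1.91 (1.71 to 2.13), above the immune ratio in each calf and nearest to it in calf 3. ENSBTAG00000013919 per BOLA-DRA was 1.17, 1.24 and 1.12 in immune cells and 12.2, 5.47 and 2.78 in epithelial cells. The epithelial intervals of neither ratio reached the immune value of the same calf. BOLA-DMB per BOLA-DRA was 0.0952, 0.0883 and 0.0638 in immune cells, 0.275, 0.203 and 0.167 in endothelial cells and 0.878, 0.683 and 0.259 in epithelial cells.

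In single epithelial cells the transcripts were sparse. After thinning, a BOLA-DRA UMI was found in 0.225% (interval 0.108% to 0.413%), 0.455% (0.324% to 0.622%) and 1.55% (1.29% to 1.86%) of epithelial cells, at a median depth of 7660 UMIs before thinning, and without thinning in 0.763%, 1.47% and 6.13%. In calf 3 the thinned share was below that in fibroblasts (2.56%) and T cells (2.94%), but inside their intervals (0.947% to 5.50% and 1.09% to 6.29%). In calf 2 it was near that in fibroblasts (0.625%, 1 of 160 cells, interval 0.0158% to 3.43%). The source of the epithelial UMIs was not tested, nor whether fibroblasts or T cells measure a background. In calf 1 the 16 fibroblasts with none allowed a share of up to 18.8%, too wide for a comparison. A CD74 UMI was found in 1.48%, 2.70% (2.36% to 3.06%) and 2.98% (2.61% to 3.38%) of thinned epithelial cells. The CD74 share was no higher than that of fibroblasts in calf 3 (2.99%). In calf 2 its interval lay above the share that 0 of 160 fibroblasts allowed by the same exact interval (up to 2.28%). Without thinning, however, 6 of 334 fibroblasts of calf 2 had a CD74 UMI (1.80%, interval 0.662% to 3.87%). Their CD74 level, from 7 UMIs, was 0.0903 against 0.128 UMIs per 10000 in epithelial cells, and this difference was not tested. Of the epithelial cells of calf 3 with a BOLA-DRA UMI, 3.76% also had a UMI of an immune marker, against 3.44% of all epithelial cells. Leaving out the cells with such a UMI gave epithelial BOLA-DRA levels of 0.00817, 0.0216 and 0.0718 UMIs per 10000.

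Within the epithelium, ENSBTAG00000013919 spanned a wider range of levels between clusters than CD74 did in each calf, in calf 1 from few UMIs in the lowest cluster. Among the 11 epithelial clusters of at least 400 cells, the cluster led by SPINK5 and KRTDAP, genes of differentiating keratinocytes, held CD74 at 0.00669, 0.0345 and 0.146 UMIs per 10000 and ENSBTAG00000013919 at 0.0100, 0.0161 and 0.0626. For the latter this was the lowest of the 11 in every calf. A cluster of 4740 cells led by RGS4 and DCN held CD74 at 0.115, 0.245 and 0.1999 and ENSBTAG00000013919 at 0.168, 0.266 and 0.403. In the cluster of 469 cells led by GRO1, CXCL2 and CCL20, genes of neutrophil and lymphocyte attraction, ENSBTAG00000013919 was at 0.308, 0.329 and 0.285. From the lowest to the highest cluster, ENSBTAG00000013919 spanned 30.7-fold in calf 1, 20.5-fold in calf 2 and 6.43-fold in calf 3. The lowest levels of calf 1, 0.0100 for ENSBTAG00000013919 and 0.00669 for CD74, rest on few UMIs, so the folds of calf 1 are uncertain. CD74 spanned 18.8-fold, 7.10-fold and 3.55-fold, with its lowest level in the cluster led by SPINK5 in calves 1 and 2 but not in calf 3, and BOLA-DRA spanned 4.53-fold in calf 2 and 3.45-fold in calf 3. Counted per cell, the deep cells of the cluster led by SPINK5 (median 11026 UMIs) held 9.35, 39.8 and 162 CD74 UMIs per 1000 cells in calves 1, 2 and 3. These folds are descriptions, since the clusters were drawn from the same cells.

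**Figure D4:**
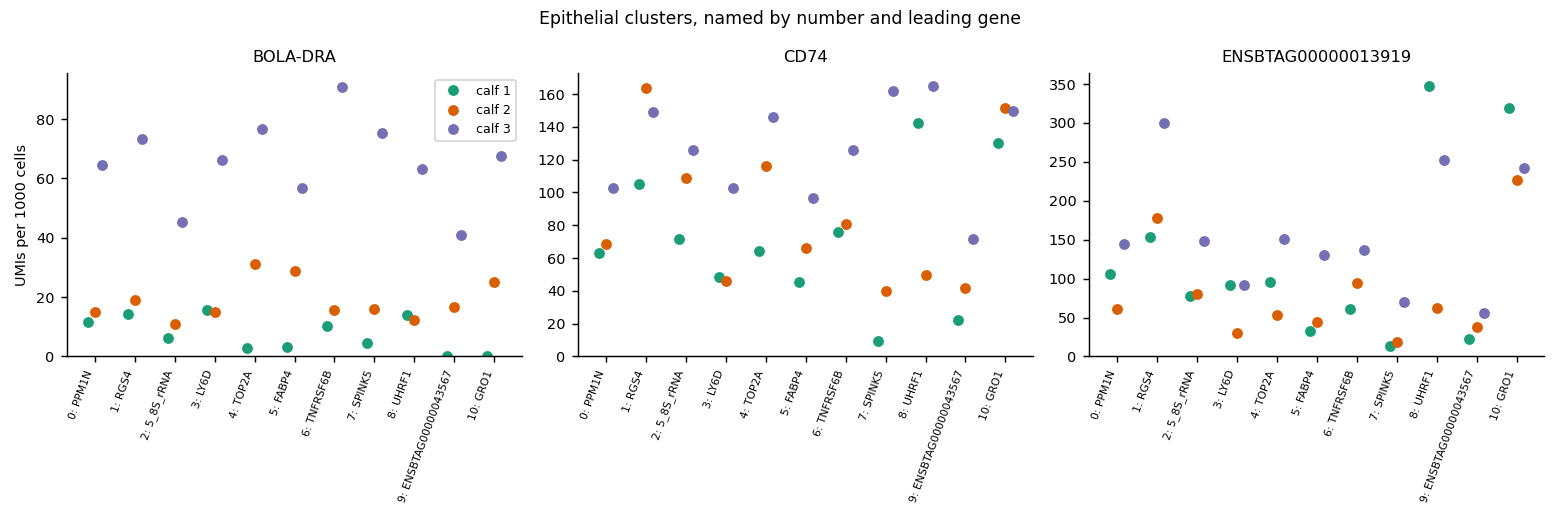
UMIs per 1000 cells in the 11 epithelial clusters of at least 400 cells, named by number and leading gene, with 1 point per calf. For BOLA-DRA the points of calf 3 stand above those of the other calves in each cluster, while ENSBTAG00000013919 is lowest in the cluster led by SPINK5 in calves 1 and 2 and in that led by ENSBTAG00000043567 in calf 3.

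The balance between class II genes differed from calf to calf in the same way in several classes. UMIs of ENSBTAG00000037605 per UMI of ENSBTAG00000009656 were 1.38, 2.66 and 0.329 in the dendritic cells of calves 1, 2 and 3, 1.48, 2.13 and 0.330 in macrophage-like cells, 5.40, 2.93 and 0.163 in endothelial cells and 3.20, 14.2 and 0.462 in epithelial cells. Calves 1 and 2 were above 1 and calf 3 below 1 in each of these 4 classes, and no 95% interval reached 1, the epithelial one of calf 1 resting on 16 and 5 UMIs. In dendritic cells ENSBTAG00000037605 stood at 95.2, 89.4 and 22.2 UMIs per 10000, lowest in calf 3. ENSBTAG00000009656 stood at 68.8, 33.6 and 67.3, lowest in calf 2. BLA-DQB per BOLA-DRA was 0.779, 0.682 and 0.479 in dendritic cells, but 0.688, 0.608 and 0.0854 (0.0705 to 0.103) in endothelial cells, so that in calf 3 the endothelial ratio was far below the dendritic one, while in calves 1 and 2 the intervals of both classes overlapped. The BLA-DQB level of endothelial cells was 1.62, 3.07 and 0.353 UMIs per 10000, and 5.93% of the thinned endothelial cells of calf 3 had a UMI of it against 42.2% in calf 2.

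**Figure D5:**
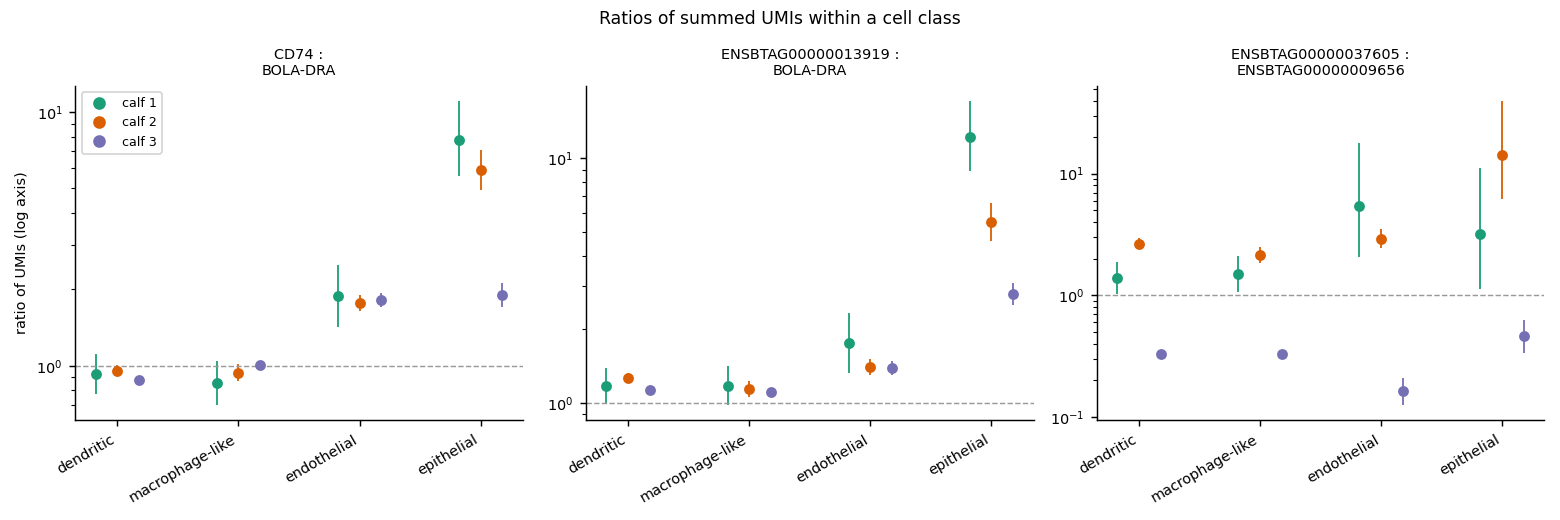
Ratios of summed UMIs of gene pairs within dendritic, macrophage-like, endothelial and epithelial cells (log axis), with 1 point per calf and exact 95% intervals. CD74 per BOLA-DRA lies at 0.855 to 1.00 in dendritic and macrophage-like cells and at 1.91 to 7.78 in epithelial cells, and ENSBTAG00000037605 per ENSBTAG00000009656 lies below 1 in calf 3 and above 1 in calves 1 and 2.

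Other genes of the pathway were read from lists. Of the class II chains and chaperones beside the 10 genes, 8 of 12 were found by name and 5 were high enough to be tested. All 5 were higher in dendritic than in T cells, beside 7.9% of all genes, and none passed between dendritic and macrophage-like cells by edgeR, where the log2 differences were 0.27 to 0.92 and none reached an unadjusted p under 0.05. BOLA-DMA, the partner chain of BOLA-DMB, was at 10.6, 11.2 and 6.53 UMIs per 10000 in dendritic cells, at 0.561, 0.648 and 0.511 in endothelial cells and at 0.0426, 0.0493 and 0.0401 in epithelial cells. It was the only one of the 5 called higher in endothelial cells than in fibroblasts (log2 difference 3.57 ± 0.41, adjusted p = 4.8e-07), beside 12.8% of all genes. The median log2 difference of the 5 was 5.28 there, above that of BOLA-DMA, so the fitted differences of the 4 not called were not all smaller. All 5 were called higher in endothelial than in epithelial cells, beside 22.4% of all genes. BOLA-DOA and BOLA-DOB, which form a modulator of DM, were near 0 in endothelial cells, with 0.00862 and 0.0258 UMIs per 10000 in calf 3 against 1.63 and 2.29 in dendritic cells. The first of these endothelial levels is that of 3 UMIs, so the endothelial log2 differences of these genes are uncertain.

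Of the lysosomal proteases and inhibitors, 10 were tested and 5 were lower in dendritic than in macrophage-like cells, where 1.59% of all genes were called lower. They were CTSB (log2 difference -2.10 ± 0.29), CTSD (-1.77 ± 0.37), CTSZ (-2.26 ± 0.33), CTSC (-1.48 ± 0.31) and LGMN (-2.44 ± 0.42). Against T cells 6 were higher in dendritic cells and CTSD was lower, beside 7.9% and 6.32% of all genes. The thiol reductase IFI30, which opens disulphide bonds of antigens, was at 13.2, 11.2 and 6.10 UMIs per 10000 in dendritic cells and, unlike the class II chains, lower in endothelial cells, at 0.0590, 0.0413 and 0.0775, than in epithelial cells, at 0.611, 0.444 and 0.363 (log2 difference -3.23 ± 0.35, adjusted p = 6.9e-08). CTSC was lower in endothelial than in epithelial cells as well (-2.86 ± 0.27), while CTSB, CTSH, CTSZ, CTSK and CST6 were higher. Of the 10 tested, 2 were thus lower and 5 higher, beside 24.1% and 22.4% of all genes. The 2 lower are near the share of all genes.

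Among 13 tested regulators of the class II genes, 3 were higher in endothelial than in epithelial cells, a share close to the 22.4% of all genes called higher there. The gamma interferon receptor chain IFNGR1 was at 2.60, 3.61 and 8.27 UMIs per 10000 in endothelial cells and at 0.198, 0.186 and 0.318 in epithelial cells (log2 difference 3.80 ± 0.25, adjusted p = 3.4e-11), and the interferon regulatory factors IRF1 (1.202 ± 0.252) and IRF8 (4.77 ± 0.60) were also higher. IFNGR1 and IRF1 were higher in endothelial cells than in fibroblasts too, beside 12.8% of all genes. In dendritic against T cells SPI1, IRF8 and IFNGR1 of the 13 were higher, beside 7.9% of all genes. Against macrophage-like cells IRF8 alone was (1.92 ± 0.48, adjusted p = 0.0366), beside 0.311%. RFX5 and RFXAP, subunits of the complex that binds class II promoters with CIITA, stayed at or below 0.144 UMIs per 10000 in each of the dendritic, macrophage-like, T, endothelial and epithelial classes. Of 5 tested genes of co-stimulation and maturation, CD86, CD40 and CD83 were higher and LAMP3 lower in dendritic than in T cells, beside 7.9% and 6.32% of all genes. CD40 and CD83 were higher in endothelial than in epithelial cells, beside 22.4%. CD83 was at 2.64, 5.94 and 10.4 UMIs per 10000 in dendritic cells, and CD40, which receives the signal of T cells, at 0.384, 0.491 and 0.316 in endothelial cells.

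Over 17 sums of a class and calf with at least 10 cells, the level pattern of CD74 was most like that of ENSBTAG00000013919 (Pearson r = 0.996), BOLA-DRA (0.995) and BOLA-DMB (0.992) among the 10 genes. CST3 (0.707) and CIITA (0.531) were the least like it. Outside the lists, the 5 genes nearest to CD74 were ENSBTAG00000048353 (0.962), FES (0.943), VAMP8 (0.942), CD58 (0.938) and ZFP36 (0.937), and the 5 nearest to CST3 were SMS (0.984), EMILIN2 (0.938), TIFAB (0.921), ENSBTAG00000012668 (0.912) and F13A1 (0.911). In calf 3 VAMP8, a membrane fusion protein, was at 9.84 UMIs per 10000 in dendritic, 6.42 in macrophage-like, 2.20 in endothelial and 1.02 in epithelial cells, and SMS, spermine synthase, at 5.24, 3.68, 0.158 and 0.246. These correlations describe sums that share libraries and are given without a test.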

How the data were processed

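Rumen cells of 3 newborn calves were studied (1 group, 1 Chromium 3′ library per calf). The authors deposited raw UMI counts per gene and barcode from Cell Ranger 3.1.0 on the ARS-UCD1.2 genome, unnormalized and unfiltered, and reads of near-identical genes could be lost or split at that step. No other unit was used.

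Kept barcodes had 500 to 4000 genes, no more than 50000 UMIs and no more than 40% of them from 13 mitochondrial genes, and 191, 908 and 879 doublets were removed by a score against simulated doublets. Cells were clustered (2000 variable genes without class II genes, a Harmony implementation, 30 principal components and a resolution of 0.1, then 50 and 0.8 for immune and epithelial cells and 0.4 for endothelial cells) and named when at least 3 listed markers were detected. A cluster of immune cells with epithelial markers (9 and 13 cells in calves 2 and 3) was kept out of all classes. Levels are UMIs per 10000 of the summed cells of a class and calf, so that fewer transcripts per cell and fewer cells with any cannot be told apart in a sum. Shares were taken after thinning each cell to 2000 UMIs, with shallower cells left out. The limit for 0 UMIs is 3 UMIs.

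Sums of at least 10 cells (15 in all, 7 residual degrees of freedom, common dispersion 0.0433) were fitted with edgeR 4.0.16 (quasi-likelihood test, TMM scaling, filterByExpr, Benjamini-Hochberg adjustment, threshold 0.05), with the calf as a block because sums of 1 calf come from the same animal. DESeq2 1.42.0 was an alternative, and the script was tested on simulated data. R 4.3.3, Python 3.11.15, leidenalg 0.10.2 and scipy 1.17.1 were used. Other alternatives changed the doublet, mitochondrial and merging steps, the resolution, the class rule, the thinning, the filter, the scaling, the block and the calves. P-values of the main fit rest on a residual spread pooled over all fitted classes, with 7 degrees of freedom. Endothelial, fibroblast and epithelial sums came from all 3 calves. Calf 1 gave no immune sum of at least 10 cells, so p-values for dendritic, macrophage-like or T cells do not measure a spread of these classes over 3 calves.

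The 10 genes, the lists and the markers were chosen with earlier results of these data known. All 10 are named, with the pathway lists and the 5 genes most correlated with CD74 and with CST3 outside them, on log2(UMIs per 10000 + 0.1). BOLA-DQA1, BOLA-DQA2, BOLA-DRB3, DIB, MARCH1, ICOSLG and CSTB were not matched to a single gene. The RefSeq gene table of another assembly served for names only, and no coordinates or sequences are given.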

Additional observations from a re-analysis of the deposited data

Results flagged for a closer look

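BOLA-DRA was also found in the barcodes that the filters left out, at levels above the limit of 3 UMIs. The main comparisons above do not use these barcodes, and called doublets entered only under other settings. In called doublets its level was 0.0507, 0.169 and 4.83 UMIs per 10000 in calves 1, 2 and 3, in barcodes with over 4000 genes 0.143, 0.271 and 1.35, and in barcodes with under 500 genes 0.140, 0.132 and 2.40. In each calf all 3 kinds of barcode lay above the epithelial level of the same calf, which was 0.00812, 0.0217 and 0.0742, and below the dendritic level. The make-up of these barcodes was not tested.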

How the results depend on the processing

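The calls of the tested genes between dendritic and T, dendritic and epithelial, and endothelial and fibroblast cells kept their direction and side of the threshold in all 99 refits of each (11 settings), and those between endothelial and epithelial cells in 97 of 99. Between dendritic and macrophage-like cells 85 of 99 did, and between T and epithelial cells 72 of 99. The cause was not tested. Refits without calf 2 or calf 3 left immune sums of 1 calf alone, and so measure no spread of the immune classes between calves. Fits on 2 immune classes alone held sums of calves 2 and 3 only. The BOLA-DRA level in macrophage-like cells, 113 UMIs per 10000, was 161 with gates, 59.6 with the limit on genes only, 168 with class II genes kept in the clustering and 185 at an immune resolution of 1.2; at 0.4 no cell was named macrophage-like, and no value was given. CD74 in dendritic cells was 148 without Harmony, against 186. The dendritic share with BOLA-DRA was 99.8% with doublets kept. Shares depended on depth by construction: the mean endothelial share with BOLA-DRA, 46.1%, was 26.1% at 1000 UMIs, 60.8% without thinning and 19.1% for at least 2 UMIs. The epithelial shares, 0.744% for BOLA-DRA and 2.39% for CD74, were 2.79% and 8.23% without thinning, 0.00778% and 0.154% for at least 2 UMIs, and that of CD74 1.25% at 1000 UMIs.

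Of the 10 genes, 1 was called between dendritic and macrophage-like cells, 0 without the calf block, 0 with gates and 6 with these classes alone. All genes called there numbered 190, with 58 without the block, 351 without the low-count filter and 376 with these classes alone. Between T and epithelial cells 4 of the 10 were called, 2 without the block, 2 with these classes alone and 8 with gates or with doublets kept. Leaving out each calf in turn gave 0 to 1 and 0 to 5 of the 10 genes in these comparisons. All genes called ranged, without a calf, from 173 to 1417 between dendritic and T cells, 5 to 203 between dendritic and macrophage-like cells, 1687 to 4388 between dendritic and epithelial cells, 2860 to 4099 between endothelial and epithelial cells, 1548 to 2405 between endothelial and fibroblast cells and 651 to 3086 between T and epithelial cells, the lowest always without calf 3. The block changed no call of the 10 genes in the other comparisons. Calf 1 gave 10 cells or fewer in each immune class.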
